A study of Homo sapiens with 4 samples.

Results

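The cadherins and protocadherins of U87 cells are described here on 4 arrays. Members were all measured genes whose symbol is CDH or PCDH followed by a number, or names a gene of the alpha, beta or gamma protocadherin cluster, which gave 85 of 23786 features, of which 22458 have 1 gene symbol. They comprise 21 cadherins, 11 protocadherins outside the clusters, 15 genes of the alpha cluster, 16 of the beta cluster and 22 of the gamma cluster. CDH4 and CDH13 were not analysed here.

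U87 is an established human glioblastoma cell line, and crizotinib is a kinase inhibitor of MET, ALK and ROS1. Cells grew in DMEM with serum, and their total RNA was measured on whole-transcript Affymetrix arrays. The 4 conditions were 2 µM crizotinib for 24 hours, vehicle for 24 hours, 1 µM crizotinib for 21 days (the resistant cells of the labels) and a drug-free 21-day control (the sensitive cells). That the resistant array is the one in drug is a reading of the labels, and the sign of every 21-day difference rests on it. There was 1 array per condition, so no difference within a pair has a replicate check or an error, and each is given as a difference of log2 values between named arrays, with no p-value. The small number of arrays sets the precision of all that follows.

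Cadherins are calcium-dependent adhesion proteins whose extracellular repeats bind the same protein on a neighbouring cell, and the classical ones hold the actin cytoskeleton through beta-catenin and alpha-catenin. Protocadherins share the repeats but not the catenin-binding tail. The clustered protocadherins sit in tandem on 1 chromosome arm, each gene with its own promoter, and in neurons each cell uses a varying choice of them, which gives the cell a surface identity that serves self-recognition. Alpha and gamma genes are spliced to constant exons shared within their cluster, whereas beta genes are not. CTCF and cohesin bind the cluster promoters and their distant enhancers, and a short conserved element near the promoters is part of that control.

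The values are log2 expression levels after RMA, and the middle of all values on the 4 arrays is 4.96. A gene was counted as higher or lower where the arrays differed by at least 2-fold and the higher array lay at or above that level. No gene can be called absent, since detection calls were not used here, and RMA shrinks differences between genes of low signal. Of the 85 members, 53 lay below 4.96 on every array, so most of the family was measured near the low end of the scale. The array medians ran between 4.92 and 4.98. The glioma and mesenchymal markers fitted the label, with 7 of 7 measured genes at or above the middle level on every array (VIM at up to 12.26), and 1 of 5 astrocyte markers did so. Of the markers of other cell types, 2 of 6 leukocyte genes (CD68 between 10.79 and 11.56, CSF1R between 5.18 and 5.64), 2 to 3 of 7 endothelial genes (KDR between 5.53 and 5.94) and 2 to 3 of 9 epithelial genes were at or above it. The leukocyte gene PTPRC, between 1.81 and 2.09, and the endothelial gene PECAM1, between 3.06 and 3.67, were below it. Of the epithelial genes, KRT8 (between 5.77 and 6.38) and CLDN3 (between 5.48 and 5.95) were above it on every array. EPCAM, between 3.88 and 5.02, was above it only in 24-hour crizotinib cells.

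The genes with the widest 24-hour separation came from the clusters and from outside them, so the starts of their promoters are shown first. RefSeq promoter windows (GRCh38.p14, 250 bases before to 50 bases after the gene start) were matched for 67 of the 85 members. The beta promoters share the run GTGGCGCT, which came out of a search for runs of 8 bases shared by most genes of the cluster on either strand. No run was shared by more, and GGTGGCGC, which overlaps it by all but 1 base, was shared by as many. Members were counted by gene, over all windows of a gene, and the rest by window. The run stood in the windows of 13 of 14 beta genes, the exception being PCDHB1, and of 0 of 13 alpha and 0 of 20 gamma genes. It stood in 1.12% of 35033 windows outside the members. The sites of 6 beta genes are printed with 16 bases on either side and the run in capitals, because this cluster had the highest 24-hour median below. All read along the gene on the + strand:
PCDHB4 (chr5:141121719-141121758): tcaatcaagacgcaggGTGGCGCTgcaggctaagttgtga
PCDHB8 (chr5:141177773-141177812): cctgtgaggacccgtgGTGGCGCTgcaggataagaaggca
PCDHB16 (chr5:141182306-141182345): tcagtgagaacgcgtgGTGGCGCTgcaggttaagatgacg
PCDHB10 (chr5:141192295-141192334): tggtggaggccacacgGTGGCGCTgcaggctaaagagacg
PCDHB13 (chr5:141213861-141213900): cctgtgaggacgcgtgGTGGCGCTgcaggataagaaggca
PCDHB14 (chr5:141223259-141223298): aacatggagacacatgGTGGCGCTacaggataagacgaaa
The run began between 1 base (PCDHB8) and 83 bases (PCDHB4) before the annotated gene start.

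The same search in the other clusters found ATGTCGCT for 9 of 13 alpha genes, as many as the overlapping GATGTCGC. It found GCCGCTGT for 11 of 20 gamma genes, which had 25 windows between them, so a gene could have more than 1 chance to hold the run. Of the windows outside the members, counted singly, 0.208% and 1.60% held these runs. Of these runs, only GCCGCTGT was found for a cadherin, in 1 of 11 genes with a window. None was found for the 9 protocadherins outside the clusters that had a window. One alpha site and 4 gamma sites are given for comparison with the beta sites above, in the same format and on the + strand:
PCDHA1 (chr5:140786082-140786121): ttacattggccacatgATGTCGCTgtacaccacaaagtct
PCDHGB1 (chr5:141350023-141350062): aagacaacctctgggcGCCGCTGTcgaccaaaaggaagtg
PCDHGB4 (chr5:141387615-141387654): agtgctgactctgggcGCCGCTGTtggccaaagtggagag
PCDHGA8 (chr5:141392566-141392605): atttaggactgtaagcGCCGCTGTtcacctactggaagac
PCDHGA10 (chr5:141412929-141412968): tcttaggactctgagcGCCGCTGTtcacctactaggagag
The letters CGCT occur in all 3 runs. On either strand they are in the windows of 46 of 47 cluster genes, but also in 69.954% of the windows outside the members. CGCT by itself therefore does not set the clusters apart. Each run was chosen after looking at these windows and is a description of letters, not evidence of binding.

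Base composition also differed between the families. The median GC content was 37.3% in alpha, 40.8% in beta and 47.3% in gamma windows. In cadherin windows it was 48.7%, close to gamma, so low GC is not particular to the clusters. It was 56.8% for the protocadherins outside the clusters and 58.7% in the windows outside the members. The whole windows of PCDHB14, a beta gene, and of PCDH18 and PCDH7, which had the widest 24-hour differences, show this contrast. Capitals mark the 50 bases from the gene start onward:
PCDHB14 (chr5:141223093-141223392, + strand): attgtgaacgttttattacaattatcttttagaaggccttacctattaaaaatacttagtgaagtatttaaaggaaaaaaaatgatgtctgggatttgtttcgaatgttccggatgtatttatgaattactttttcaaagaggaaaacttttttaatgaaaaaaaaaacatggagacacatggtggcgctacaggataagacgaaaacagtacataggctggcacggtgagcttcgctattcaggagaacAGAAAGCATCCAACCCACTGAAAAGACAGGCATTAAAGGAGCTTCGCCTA
PCDH18 (chr4:137532445-137532744, - strand): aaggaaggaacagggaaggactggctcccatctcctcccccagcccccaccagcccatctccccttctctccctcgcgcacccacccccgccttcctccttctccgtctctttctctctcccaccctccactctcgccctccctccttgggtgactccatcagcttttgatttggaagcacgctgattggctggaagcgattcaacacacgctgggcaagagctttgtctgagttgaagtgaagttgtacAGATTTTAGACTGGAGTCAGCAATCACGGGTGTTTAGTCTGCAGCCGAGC
PCDH7 (chr4:30720119-30720418, + strand): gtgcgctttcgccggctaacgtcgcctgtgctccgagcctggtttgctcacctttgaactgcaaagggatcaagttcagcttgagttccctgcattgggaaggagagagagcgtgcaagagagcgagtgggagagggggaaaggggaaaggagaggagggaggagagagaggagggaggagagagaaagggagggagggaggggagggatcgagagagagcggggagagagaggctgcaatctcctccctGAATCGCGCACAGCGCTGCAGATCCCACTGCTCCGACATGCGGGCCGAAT

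After 24 hours of 2 µM crizotinib, 7 of the 85 members were at least 2-fold higher than in vehicle cells, against 1.51% of all features, and 0 were lower, against 1.11%. They were PCDH18 and PCDH7 outside the clusters, the cadherins CDH18 and CDH7, and PCDHB8, PCDHB6 and PCDHB14 of the beta cluster. PCDHGA8 and PCDHGA12 also differed by 1.00 on the log2 scale but stayed below the level of 4.96 on both arrays, at 4.40 and 4.84 in crizotinib cells. After 21 days of 1 µM crizotinib, 1 member was at least 2-fold higher than in its control, against 2.08% of all features, and 0 were lower, against 2.14%. With the vehicle array in place of the 21-day control, 2 members were higher and 7 lower. The share of all features under that swapped control was not computed, so whether these counts are unusual is not known.

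PCDH18 and PCDH7 were the members with the widest 24-hour separation. PCDH18, a delta-type protocadherin studied mainly in the nervous system, had a log2 level of 8.47 in 24-hour crizotinib cells and 6.04 in vehicle cells, and of 4.44 in 21-day crizotinib cells and 4.59 in the 21-day control. Its 24-hour difference was 2.43, a 5.40-fold higher level, while the 21-day pair differed by -0.15. The drug-free arrays themselves stood 1.45 apart, lower in the 21-day control, so the 21-day cells had a low level with or without drug.

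PCDH7, another delta-type protocadherin with known roles in adhesion and in cancer cell signalling, had 7.67 in 24-hour crizotinib cells and 5.66 in vehicle cells, and 5.73 in 21-day crizotinib cells and 5.77 in the 21-day control. The 24-hour crizotinib array stood apart from the other 3, which lay close together. Its 24-hour difference was 2.01 (4.03-fold), its 21-day difference -0.04, and the drug-free arrays differed by 0.12. Among the 23 members tested with limma, in a fit that takes the drug-free arrays as 1 group with 1 residual degree of freedom, PCDH7 had the smallest p-value at 24 hours, with a log2 change of 1.95 (SE 0.23) and a Benjamini-Hochberg adjusted p of 0.154.

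No member passed an adjusted p of 0.05 in that fit at 24 hours, where 0.00841% of 11891 features did, or at 21 days, where 1.49% did. The unadjusted p was under 0.05 for 14 members that were higher and 0 that were lower at 24 hours, against 7.82% and 8.45% of the features tested. At 21 days it was under 0.05 for 1 higher and 3 lower members, against 7.88% and 9.01%. These p-values measure only the spread between the drug-free cultures, and the lone crizotinib arrays are assumed to vary likewise. Members and all other features entered the fit by their mean over all arrays, the tested crizotinib array included. A high value on that array could thus bring a gene in. CDH7 (6.81), PCDHB10 (5.97) and PCDHB2 (5.58) were highest in 24-hour crizotinib cells and below 4.96 in the 21-day control (4.51, 3.88 and 4.75). PCDHB5, counted as higher at 21 days, was highest in 21-day crizotinib cells (5.91). It lay below 4.96 on both 24-hour arrays, at 4.87 with drug and 4.40 in vehicle cells. A filter without the tested array was not run. The limma change of PCDH18 at 24 hours was 3.16 (SE 0.59, adjusted p = 0.179), larger than its difference from vehicle alone because the 21-day control was lower than vehicle.

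**Figure D1:**
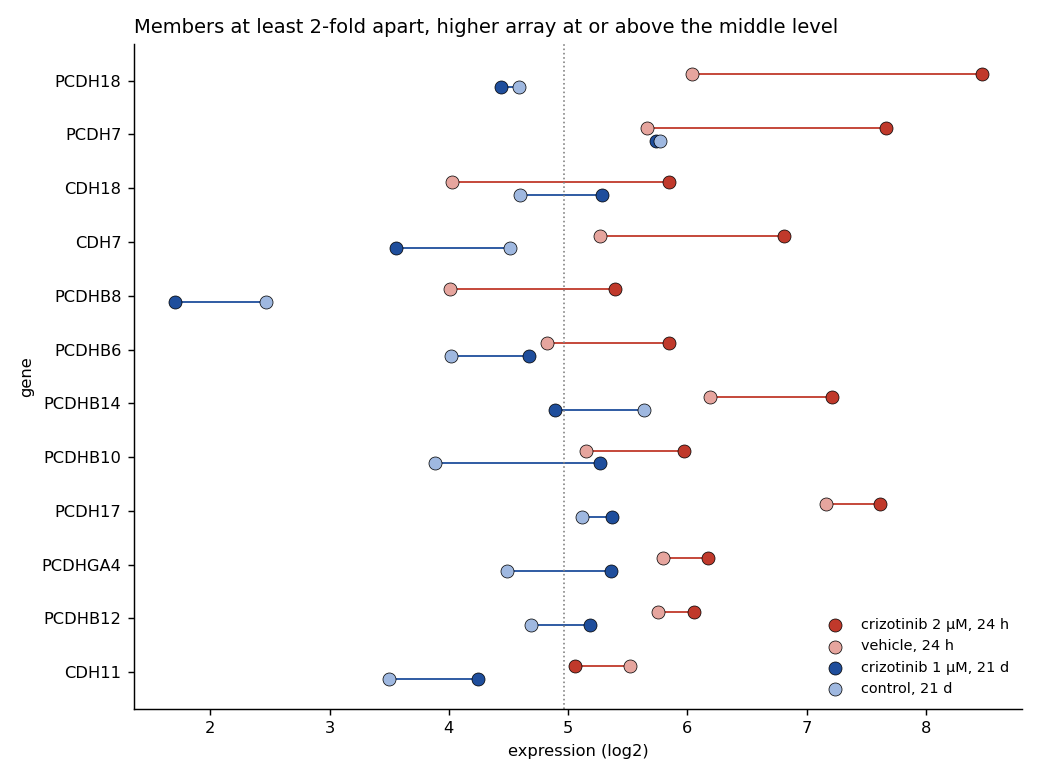
Log2 expression (horizontal axis) of the 12 members at least 2-fold apart in any of the 3 comparisons with the higher array at or above 4.96, 1 gene per line, with each crizotinib array joined to its own control. Red points are the 24-hour pair and blue points the 21-day pair, dark with drug and light without; the dotted line is the middle level of 4.96. PCDH18 and PCDH7 have the longest red lines, at 2.43 and 2.01, beside short blue ones.

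The other protocadherins outside the clusters showed no such 24-hour difference. PCDH17, which recruits actin regulators at neuronal contacts, had 7.61 in 24-hour crizotinib cells and 7.16 in vehicle cells, and 5.37 in 21-day crizotinib cells and 5.11 in the 21-day control. Both 24-hour arrays were therefore above both 21-day arrays, and the drug-free difference of -2.05 was wider than the 0.46 and 0.25 between drug and no drug. PCDH10, a relative of PCDH17 that is often silenced by methylation in tumours, followed the same order, at 5.13 in 24-hour crizotinib cells, 4.79 in vehicle cells and 3.62 in the 21-day control, with the 21-day crizotinib array 0.37 above the last. The remaining 7 genes (PCDH1, PCDH8, PCDH9, PCDH12, PCDH15, PCDH19 and PCDH20) lay below 4.96 on every array, with 24-hour differences between -0.44 (PCDH1) and 0.18 (PCDH19).

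Among the type I cadherins, CDH2, the N-cadherin of neural and mesenchymal cells, was well above 4.96 on every array. It had 8.52 in 24-hour crizotinib cells and 8.82 in vehicle cells, and 8.48 in 21-day crizotinib cells and 8.59 in the 21-day control, so no pair differed by as much as 0.5. CDH1, the E-cadherin of epithelia, had 3.41 and 3.58 in 24-hour crizotinib and vehicle cells and 3.45 and 3.41 in 21-day crizotinib and control cells. The pair often followed in epithelial-mesenchymal transition thus stayed on the same sides of 4.96 on every array, with CDH2 above and CDH1 below.

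CDH3, or P-cadherin, was at 4.53 and 4.19 in 24-hour crizotinib and vehicle cells and at 4.11 and 3.67 in 21-day crizotinib and control cells. CDH15, the M-cadherin of muscle, was at 5.23 and 4.88 at 24 hours and at 5.08 and 5.06 at 21 days, in the same order of drug and no drug. Both were a little higher with drug in each pair, by at most 0.43.

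CDH18 and CDH7, type II cadherins known from the nervous system, were the only cadherins at least 2-fold apart after drug. CDH18 had 5.84 in 24-hour crizotinib cells and 4.03 in vehicle cells, and 5.29 in 21-day crizotinib cells and 4.60 in the 21-day control. Both crizotinib arrays lay above both drug-free arrays, with differences of 1.81 (3.51-fold) at 24 hours and 0.69 at 21 days. The mean of its 4 values was 4.94, just under the level needed to enter the limma fits.

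CDH7 had 6.81 in 24-hour crizotinib cells and 5.27 in vehicle cells, and 3.56 in 21-day crizotinib cells and 4.51 in the 21-day control. The crizotinib array was the higher of its pair at 24 hours, by 1.54 (2.91-fold), and the lower at 21 days, with a difference of -0.96. In the limma fit against the drug-free arrays the changes were 1.92 at 24 hours and -1.33 at 21 days. The mean of 5.04 that let CDH7 into that fit includes the tested 6.81 of 24-hour crizotinib cells. The fit is therefore no separate support for the 24-hour difference.

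CDH11, the OB-cadherin of osteoblasts and other mesenchymal cells, had 5.06 in 24-hour crizotinib cells and 5.52 in vehicle cells, and 4.24 in 21-day crizotinib cells and 3.50 in the 21-day control. It was the lowest cadherin of the 24-hour pair, at -0.46, and the highest of the 21-day pair, at 0.74. Its drug-free difference was -2.02, a 4.05-fold lower level in the 21-day control, which is wider than either. CDH24, a type II cadherin that binds catenins, had 6.30 and 6.71 in 24-hour crizotinib and vehicle cells and 5.60 and 6.30 in 21-day crizotinib and control cells, lower with drug in both pairs. CDH5, the endothelial VE-cadherin, stayed between 4.09 and 4.39.

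Over all 21 cadherins the medians lay near those of all features. At 24 hours 9 lay above 0 and 12 below, with a median of -0.06, where 48.4% of all features lay above 0 and their median was -0.01. At 21 days 12 lay above 0, with a median of 0.02, where 51.1% of all features did and their median was 0.01. Between the drug-free arrays 8 lay above 0, with a median of -0.04, where 50.3% of all features did. Most cadherins were below 4.96: over the 4 whose mean reached it, the median was -0.41 at 21 days and -0.32 between the drug-free arrays.

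**Figure D2:**
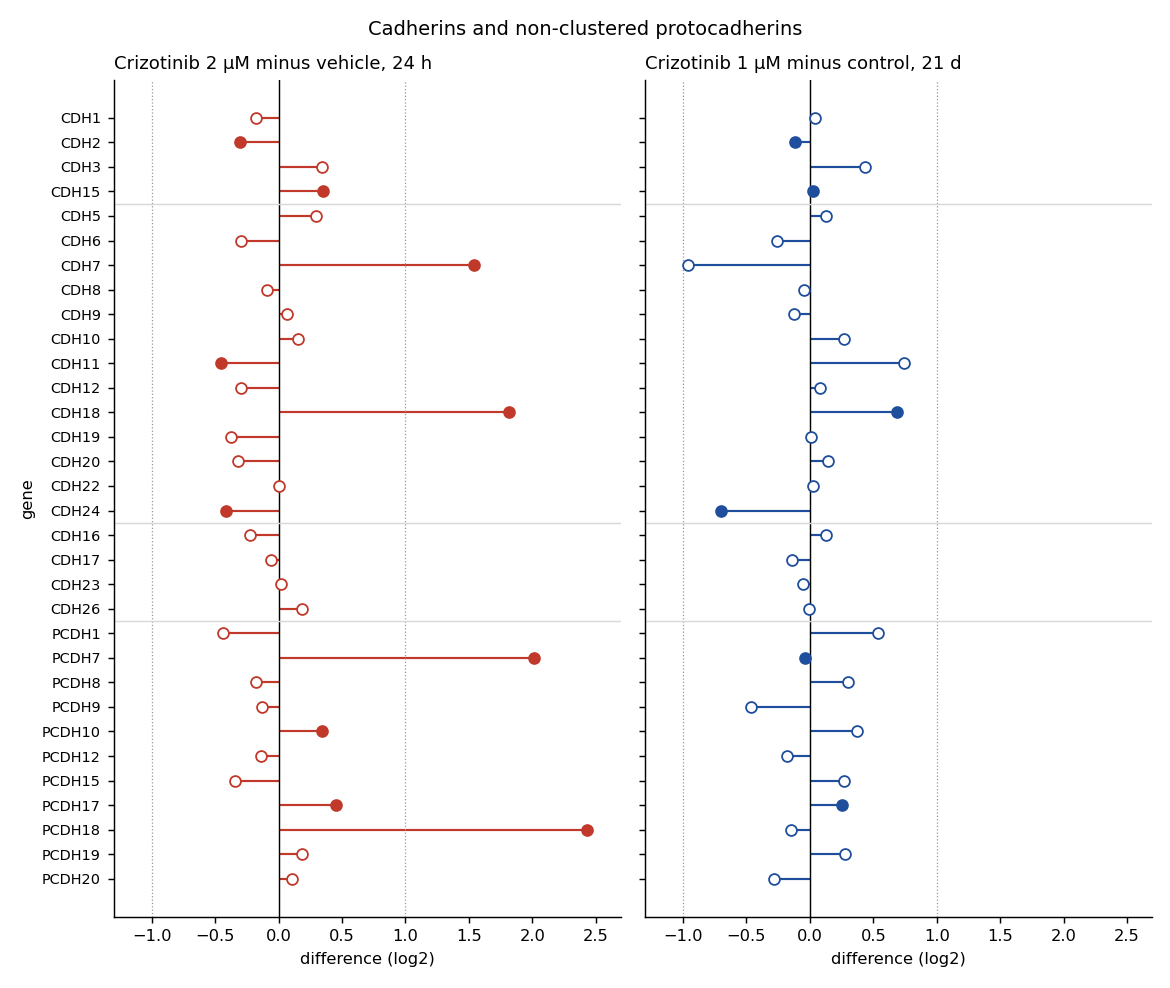
Difference between crizotinib and its own control (horizontal axis, log2) for the 21 cadherins and the 11 protocadherins outside the clusters, 24 hours at left and 21 days at right, with grey lines between type I, type II and other cadherins and protocadherins. Filled points have the higher array at or above 4.96 and dotted lines mark 2-fold; PCDH18, PCDH7, CDH18 and CDH7 pass 1 at 24 hours and no gene does at 21 days.

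The beta and gamma clusters were higher in 24-hour crizotinib cells along most of their length. Of the 16 beta genes 14 lay above 0, with a median of 0.73, and of the 22 gamma genes 20 did, with a median of 0.54. A difference of at least 0.5 was reached by 11 beta and 12 gamma genes, against 9.22% of all features, and by 0 in the lower direction, against 8.11%. The 15 alpha genes did not share this: 8 lay above 0 and 6 below, and their median was 0.00.

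The arrays also fell into an order within the clusters. The median level of the beta genes was 5.49 in 24-hour crizotinib cells, 4.84 in vehicle cells, 4.60 in 21-day crizotinib cells and 4.20 in the 21-day control. The 24-hour crizotinib array was the highest of the 4 for 13 of 16 beta and 19 of 22 gamma genes, but for 5 of 15 alpha and 7 of 21 cadherin genes, and for 25.6% of all features. The 21-day control was the lowest for 9 beta, 11 gamma and 7 alpha genes, against 23.9% of all features. In bulk RNA a change in the share of cells that use a gene cannot be told apart from a change in RNA per cell.

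**Figure D3:**
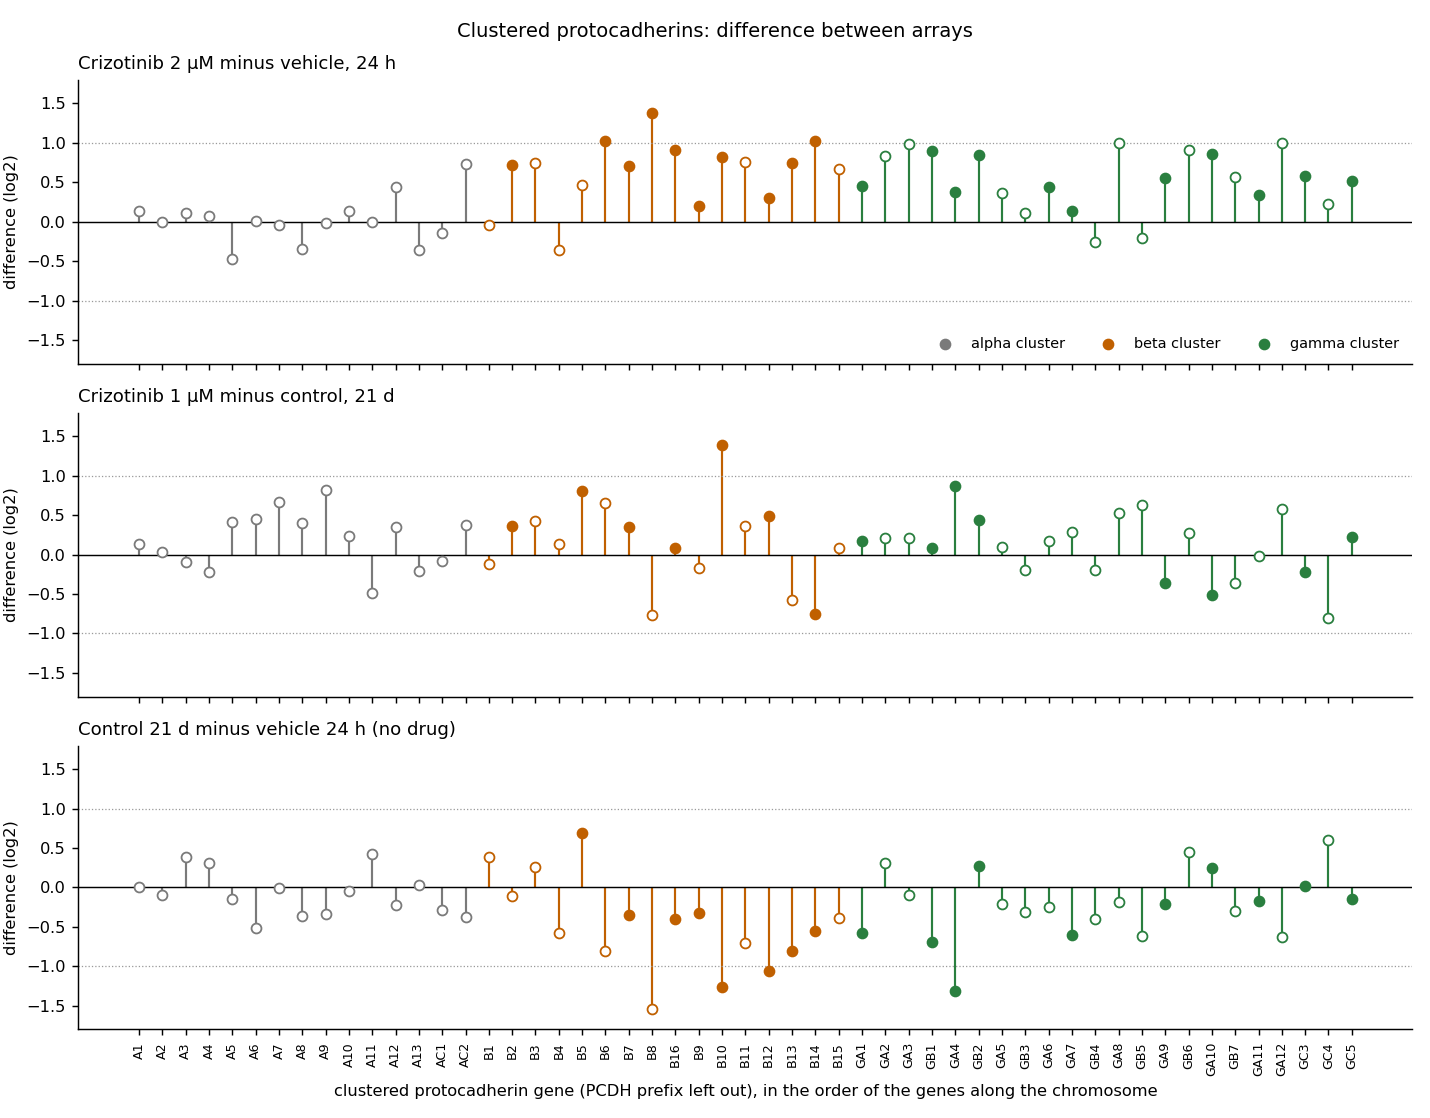
Difference between arrays (vertical axis, log2) for the 53 clustered protocadherins in their order along chromosome 5, for crizotinib minus vehicle at 24 hours, crizotinib minus control at 21 days, and the 21-day control minus the 24-hour vehicle. Filled points have the higher array at or above 4.96 and dotted lines mark 2-fold. At 24 hours the beta and gamma points stand mostly above 0, with medians of 0.73 and 0.54, and the alpha points around 0.

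PCDHB8 had the widest 24-hour difference of the beta genes. It was at 5.39 in 24-hour crizotinib cells and 4.01 in vehicle cells, and at 1.70 in 21-day crizotinib cells and 2.47 in the 21-day control. The 24-hour difference was 1.38 (2.61-fold) and the 21-day difference -0.77, and both 21-day arrays were far below both 24-hour arrays.

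PCDHB14 had 7.21 in 24-hour crizotinib cells and 6.19 in vehicle cells, and 4.89 in 21-day crizotinib cells and 5.63 in the 21-day control. PCDHB6 had 5.85 in 24-hour crizotinib cells and 4.82 in vehicle cells, and 4.67 in 21-day crizotinib cells and 4.02 in the 21-day control. Their 24-hour differences were close, at 1.02 and 1.03, whereas their 21-day differences had opposite signs, at -0.75 and 0.66.

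PCDHB16 followed at 24 hours with 6.60 in crizotinib cells and 5.69 in vehicle cells, and had 5.36 and 5.28 in 21-day crizotinib and control cells. PCDHB13 had 5.94 in 24-hour crizotinib cells and 5.19 in vehicle cells, and 3.81 in 21-day crizotinib cells and 4.39 in the 21-day control. PCDHB4 had the lowest 24-hour difference of the cluster, -0.36, at 2.39 in crizotinib cells and 2.75 in vehicle cells. Its promoter window holds the same GTGGCGCT run as those of PCDHB8, PCDHB14 and PCDHB16. PCDHB1, whose window lacks the run, differed by -0.05, at 2.37 in crizotinib cells and 2.42 in vehicle cells. PCDHB4 and PCDHB1 lay far below 4.96, and whether the run bears on expression was not tested. Beta genes are related in sequence, and how far their probes share signal was not tested.

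PCDHB10 was the 1 member at least 2-fold apart at 21 days. It had 5.97 in 24-hour crizotinib cells and 5.15 in vehicle cells, and 5.27 in 21-day crizotinib cells and 3.88 in the 21-day control. Both crizotinib arrays were above both drug-free arrays, but the 21-day level was only 0.12 above vehicle: the 21-day control stood low, 1.27 below vehicle. Its 21-day difference was 1.38, and in a limma fit of drug against no drug that adjusts for the pair, the change was 1.10 (SE 0.23, adjusted p = 0.176). That fit called 0.0% of features. The unadjusted p was under 0.05 for 6 higher and 1 lower member, against 6.9% and 7.71%. Its level filter included both crizotinib arrays. Of the 6, PCDHB2 lay below 4.96 on both drug-free arrays (4.86 and 4.75), and PCDHB10, PCDHB5 and PCDHGA4 on 1 of them. PCDHGB2 and PCDHB7 were above it on every array. The error of this fit is the disagreement between the pairs, which differ in dose and time. The 21-day difference for which PCDHB10 was named enters the fit, so the fit is no separate check.

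PCDHB5 was higher on both 21-day arrays than on both 24-hour arrays. It had 4.87 in 24-hour crizotinib cells and 4.40 in vehicle cells, and 5.91 in 21-day crizotinib cells and 5.10 in the 21-day control. It was higher with drug in both pairs, by 0.47 and 0.81. PCDHB12, by contrast, was at 6.06 and 5.76 in 24-hour crizotinib and vehicle cells and at 5.18 and 4.69 in 21-day crizotinib and control cells, with both 24-hour arrays above both 21-day arrays.

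At 21 days the beta cluster was divided. Of its 16 genes 11 lay above 0 and 5 below, with a median of 0.25, and 3 were at least 0.5 higher and 3 at least 0.5 lower, where 10.8% and 10.2% of all features were. The sign of the median depends on the control: it was -0.32 against the vehicle array and -0.02 against the mean of the drug-free arrays. Positive differences in both pairs were found for 10 of the 16 beta genes, against 6623 of 23786 features. A positive 24-hour with a negative 21-day difference was found for 4, against 4847 of 23786 features.

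Between the drug-free arrays the beta genes were mostly lower in the 21-day control. Of the 16, 13 lay below 0, with a median of -0.48, and 8 were at least 0.5 lower and 1 at least 0.5 higher, where 6.67% and 6.58% of all features were. Compared with vehicle cells, the 21-day control had 6 of all 85 members lower by 2-fold or more with the higher array at or above 4.96, against 0.719% of all features, and 0 higher, against 0.874%. They were PCDH17, CDH11, PCDH18, PCDHGA4, PCDHB10 and PCDHB12. PCDHB8, at -1.54, and PCDH10, at -1.17, were as far apart but below that level on both arrays. This comparison shares the vehicle array with the 24-hour pair and the 21-day control with the 21-day pair, so a high or low value on either array enters both.

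**Figure D4:**
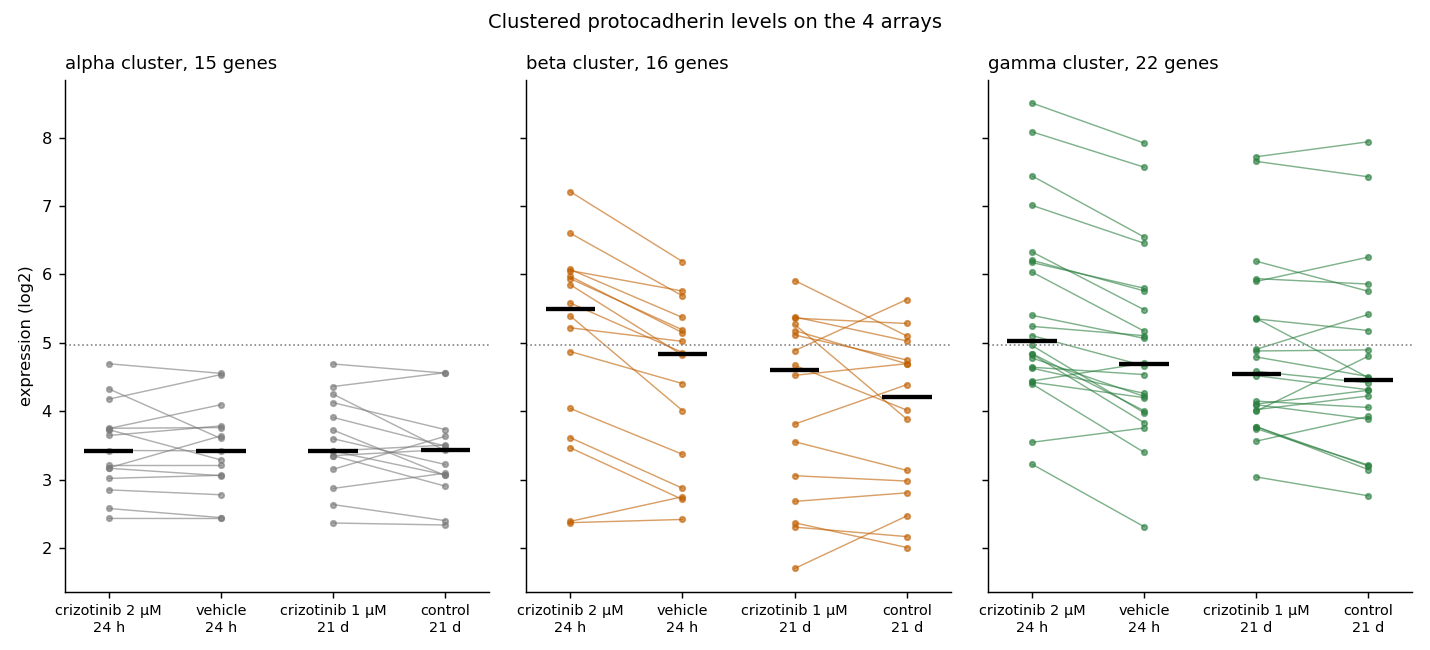
Log2 expression (vertical axis) of each clustered protocadherin on the 4 arrays, with lines joining each crizotinib array to its own control; black bars are the medians over the genes of a cluster and the dotted line is 4.96. All 15 alpha genes lie below the line, and the beta bars stand at 5.49, 4.84, 4.60 and 4.20 from left to right.

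In the gamma cluster the 24-hour difference was found in each subfamily. All 12 gamma A genes lay above 0, with a median of 0.50, as did 5 of 7 gamma B genes and all 3 gamma C genes, with medians of 0.56 and 0.52. Probes in the 3′ exons that the gamma genes share could give the subfamilies a common signal. Their agreement is therefore not a set of separate observations. No gamma gene was called, where 1.51% of all features were called higher and 1.11% lower. PCDHGA8 and PCDHGA12, with differences of 1.00, lay below 4.96 on both arrays, and the others differed by less than 2-fold.

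PCDHGC3 and PCDHGC5 are gamma C genes, which neurons use more evenly than the other cluster members. PCDHGC3 had 8.51 in 24-hour crizotinib cells and 7.92 in vehicle cells, and 7.72 in 21-day crizotinib cells and 7.94 in the 21-day control. PCDHGC5 had 8.09 and 7.57 in 24-hour crizotinib and vehicle cells and 7.65 and 7.43 in 21-day crizotinib and control cells. In both the 24-hour crizotinib array was the highest of the 4, and the other 3 lay close together.

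Of the gamma B genes, PCDHGB1 had 7.44 in 24-hour crizotinib cells and 6.55 in vehicle cells, and 5.94 and 5.86 in 21-day crizotinib and control cells. PCDHGB2 had 6.33 and 5.48 at 24 hours and 6.19 and 5.75 at 21 days, in the same order, so that both its crizotinib arrays lay above both drug-free arrays. PCDHGB4 and PCDHGB5 were the gamma genes below 0 at 24 hours, at -0.26 and -0.21, and the windows of both hold GCCGCTGT, as does that of PCDHGB1. Whether that run bears on these differences was not tested.

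Of the gamma A genes, PCDHGA9 had 7.01 in 24-hour crizotinib cells and 6.46 in vehicle cells, and 5.90 and 6.25 in 21-day crizotinib and control cells. PCDHGA10 had 6.04 in 24-hour crizotinib cells and 5.17 in vehicle cells, and 4.91 and 5.41 in 21-day crizotinib and control cells. Both were higher with drug at 24 hours and lower at 21 days. PCDHGA4 was lowest in the 21-day control, with 6.17 in 24-hour crizotinib cells, 5.80 in vehicle cells, 5.36 in 21-day crizotinib cells and 4.49 in the 21-day control, and its 21-day difference of 0.87 was the highest of the gamma genes.

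At 21 days 14 of the 22 gamma genes lay above 0, with a median of 0.17, where 51.1% of all features did. A positive 24-hour and a negative 21-day difference was found for 7, against 4847 of 23786 features. Against the vehicle array the gamma median was -0.19. PCDHGC4 had the lowest 21-day difference, at -0.80, and lay below 4.96 on every array. All 22 gamma genes share 1 gene end in the RefSeq annotation, as do all 15 alpha genes, so probes in the shared 3′ exons would give their members a common signal. No member had values identical to another on the 4 arrays, and how far the members of a cluster were measured apart is not known.

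The alpha genes lay below 4.96 on every array, which limits what their differences can show. PCDHA1 had 4.69 and 4.55 in 24-hour crizotinib and vehicle cells and 4.69 and 4.56 in 21-day crizotinib and control cells. The 24-hour differences of the cluster ran between -0.47 (PCDHA5) and 0.73 (PCDHAC2), and the 21-day differences between -0.48 (PCDHA11) and 0.82 (PCDHA9).

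**Figure D5:**
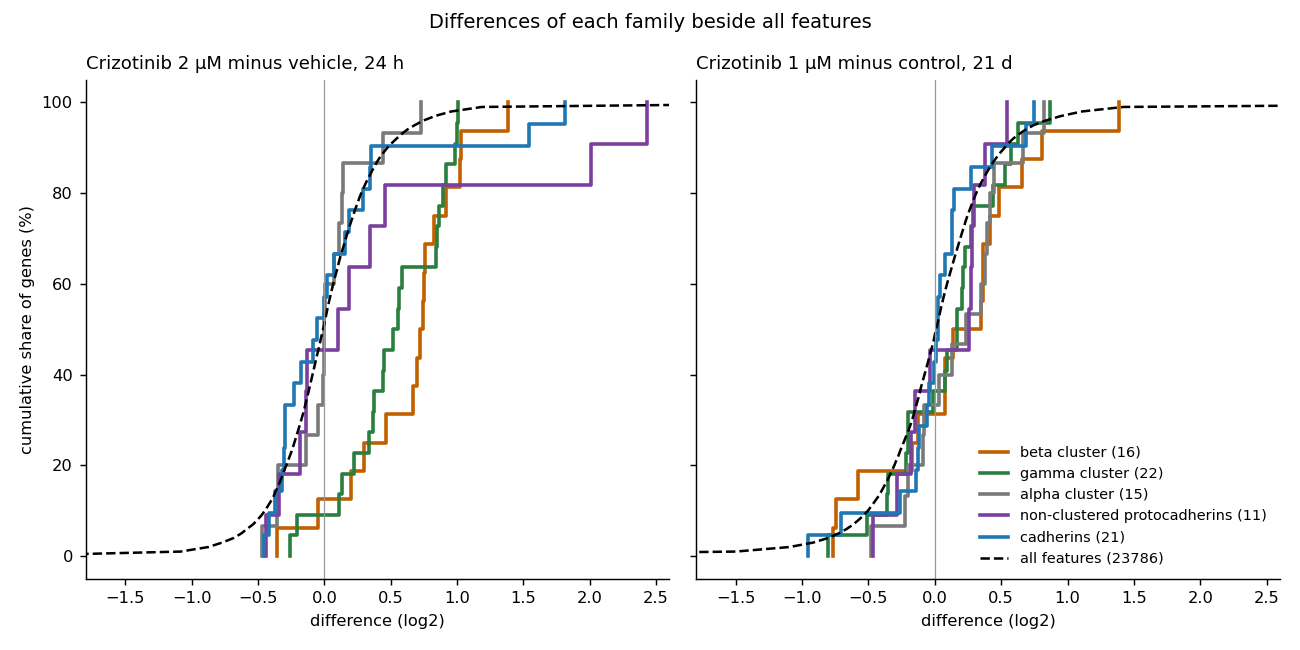
Cumulative share of genes (vertical axis, %) against the difference between crizotinib and its own control (horizontal axis, log2), at 24 hours (left) and 21 days (right), for each family and for all 23786 features (dashed). The dashed line joins whole percentiles. At 24 hours the beta and gamma lines lie mostly to the right of it, with medians of 0.73 and 0.54 against -0.01; at 21 days their medians are 0.25 and 0.17 against 0.01.

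Some neuronal marker genes were high on the same array as the protocadherins. SYT1, a synaptic vesicle calcium sensor, had 6.83 in 24-hour crizotinib cells and 5.74 in vehicle cells, and 4.44 and 4.52 in 21-day crizotinib and control cells. MAP2, a dendritic microtubule protein, was 0.95 higher in 24-hour crizotinib cells, while STMN2 and RBFOX3 differed by -0.87 and -0.27 and lay below 4.96 on every array. Of 5 measured neuronal markers 3 were at or above that level on each 24-hour array and 2 on each 21-day array, and their summed level was 9.29 in 24-hour crizotinib cells, 8.75 in vehicle cells, 8.50 in 21-day crizotinib cells and 8.09 in the 21-day control, on the log2 scale. Their part in the protocadherin differences was not tested.

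The genes that work with cadherins were read from lists of known partners. Of 11 catenins and their relatives none was at least 2-fold apart with drug in either pair. Of all features, 1.51% were called higher and 1.11% lower at 24 hours, and 2.08% and 2.14% at 21 days. With 11 genes, finding none is near these shares. CTNNB1, the beta-catenin that links cadherins to actin and to Wnt signalling, had 10.64 and 10.44 in 24-hour crizotinib and vehicle cells. It had 10.24 and 10.41 in 21-day crizotinib and control cells. The alpha-catenin relative CTNNAL1 had the lowest difference of the list in each pair, -0.55 at 24 hours and -0.71 at 21 days. CTNND2, the neural delta-catenin, was called lower in the 21-day control than in vehicle cells, at 5.01 and 6.21, as 0.719% of all features were.

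Of 6 transcription factors of epithelial-mesenchymal transition, which repress CDH1 in other cells, 5 lay above 0 at 24 hours, with a median of 0.60, where 48.4% of all features did. None was called higher, against 1.51% of all features. SNAI1 had 5.22 and 4.25 in 24-hour crizotinib and vehicle cells, TWIST1 6.28 and 5.54, and SNAI2 11.12 and 10.48. Beside them CDH1 differed by -0.18 and CDH2 by -0.30. At 21 days 3 of the 6 lay above 0, with a median of 0.01, where 51.1% of all features did.

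A list of proteases that can cleave cadherins, with subunits of such proteases, had 8 measured genes. Of these, the secreted metalloproteases MMP7 and MMP3 were called higher at 21 days, where 2.08% of all features were. MMP7 had 7.62 in 21-day crizotinib cells and 3.68 in the control, and MMP3 11.81 and 9.77. The sheddase ADAM10, which cuts CDH2 and gamma protocadherins, differed by 0.56 at 24 hours and -0.02 at 21 days.

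Among the larger cadherin relatives, 7 of 9 FAT, Dachsous and flamingo genes lay above 0 at 24 hours, with a median of 0.41, where 48.4% of all features did. FAT4, a giant cadherin of planar polarity and growth control, was called higher, as 1.51% of all features were, at 7.25 in crizotinib cells and 6.25 in vehicle cells. Of 7 desmosomal cadherins DSG2 was called lower at 21 days, against 2.14% of all features, at 6.22 in crizotinib cells and 7.31 in the control. Of 8 calsyntenins and cadherin-related genes CLSTN2 was called higher at 21 days, against 2.08% of all features, at 5.04 in crizotinib cells and 3.77 in the control. All 5 nectins and junction partners lay below 0 at 21 days, with a median of -0.28, where 51.1% of all features lay above 0. None was called, against 2.08% of all features called higher and 2.14% lower.

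Of 15 measured regulators of the cluster promoters, 1 lay above 0 and 14 below at 21 days, with a median of -0.45, where 51.1% of all features lay above 0. At 24 hours 5 lay above 0 and 10 below, with a median of -0.09, where 48.4% did. SMC1A, a cohesin subunit, was called lower at 21 days, as 2.14% of all features were, with 7.75 in crizotinib cells and 8.77 in the control. Its partners RAD21 and SMC3 differed by -0.93 and -0.89, the maintenance DNA methyltransferase DNMT1 by -0.91, and SMCHD1, a silencing factor of the clusters, by -0.86. CTCF had 8.69 and 8.83 in 24-hour crizotinib and vehicle cells and 8.44 and 8.93 in 21-day crizotinib and control cells. Cohesin and DNMT1 also serve dividing cells, and whether these differences bear on the clusters was not tested.

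Of 12 measured proteins that act under protocadherins, CYFIP2 and FYN were called higher at 21 days, where 2.08% of all features were. CYFIP2, a subunit of the WAVE complex that some protocadherins recruit to actin, had 7.96 and 7.65 in 24-hour crizotinib and vehicle cells and 7.98 and 6.11 in 21-day crizotinib and control cells. As with PCDHB10, the 21-day control was the array that stood low. The kinase FYN had 9.43 in 21-day crizotinib cells and 8.40 in the control. PTK2, the focal adhesion kinase that clustered protocadherins bind, differed by -0.02 at 24 hours and -0.12 at 21 days.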

How the data were processed

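Total RNA of 4 U87 cultures was measured on whole-transcript arrays, 1 array per condition. The authors deposited log2 expression values, made with RMA in affy 1.36.1 and R 2.15.1 per the submitters' processing notes. RMA corrects background, makes the distributions of the arrays equal and summarizes probes, which compresses low differences.

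Differences were computed between arrays, and a gene was called where they stood 2-fold or more apart and the higher reached 4.96. limma 3.58.1 (lmFit and eBayes, R 4.3.3, Benjamini-Hochberg over 11891 features whose mean reached that level) was fitted with the drug-free arrays as 1 group, and again for drug against no drug with the pair in the model. Family medians were taken over all measured members, beside all 23786 features. Medians and calls were checked on data with known answers.

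Members and gene lists were chosen with earlier results of these data known. Named members are those called, the 2 highest and 2 lowest of each family in each comparison among members at or above 4.96, and the type I cadherins with CDH5 and CDH11; others were named after their values were seen. Partner genes are those called or at an end of their list, and others named after their values were seen. Promoter runs were searched on both strands of RefSeq windows (GRCh38.p14).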

Additional observations from a re-analysis of the deposited data

Results flagged for a closer look

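CDH7, PCDHB8 and PCDHB14 are members called in 1 pair whose crizotinib arrays lay on opposite sides of the own control in the 2 pairs, by at least 0.5 on the log2 scale each way. CDH7 differed by 1.54 at 24 hours and by -0.96 at 21 days. PCDHB8 differed by 1.38 and -0.77, and PCDHB14 by 1.02 and -0.75. PCDHB13 (0.75 and -0.58) and PCDHGA10 (0.86 and -0.51) had the same pattern but were called in neither pair. In 21-day crizotinib and control cells CDH7 (3.56 and 4.51), PCDHB8 (1.70 and 2.47) and PCDHB13 (3.81 and 4.39) lay below 4.96. Their 21-day differences therefore come from low signal and miss the level rule. The share of all features with this pattern was not computed. Dose and time differ between the pairs, each difference rests on 2 arrays, and the difference between the pairs was not tested.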

How the results depend on the processing

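Of 59 family medians recomputed, 54 stayed inside the 95% binomial interval over members, which is wide in small families. That interval takes genes, not cultures, as its units, so staying inside it is no measure of stability. For the protocadherins outside the clusters at 24 hours it ran between -0.34 and 2.01, the upper end being the value of PCDH7 itself. The median of the protocadherins outside the clusters, 0.10 at 24 hours over all 11, was 1.23 over those whose higher array reached 4.96 and 2.01 over those whose mean did, and between the drug-free arrays it was -1.45 under both in place of -0.07. At 21 days it was -0.16 against vehicle in place of 0.25, and the gamma median -0.19 in place of 0.17. Of 32 counts, 19 stayed within 1.5 times. Of 24 values of called members, none turned sign and 22 stayed at 2-fold. The exceptions were PCDHB10 at 21 days with the vehicle array (0.12) or the mean of the drug-free arrays (0.75) as control. Each of these values reuses the crizotinib array on which the member was called, so most of this agreement was built in and is no replicate check. Members called higher at 24 hours numbered 3 with the level set at the upper quartile of all values, 16 at 1.5-fold, 18 against the 21-day control and 13 against the mean of the drug-free arrays. At 21 days the counts higher were 0 at the upper quartile, 4 at 1.5-fold and 2 against vehicle, and the counts lower were 2 at 1.5-fold, 7 against vehicle and 1 against the mean. Between the drug-free arrays, 1 was higher at 1.5-fold, and 1 at the upper quartile and 10 at 1.5-fold were lower. The share of all features was not computed under these other settings, so their counts have no background. The beta median was 1.19 at 24 hours against the 21-day control and -0.32 at 21 days against vehicle. The 21-day cadherin median was -0.41 over members whose mean of 4 arrays reached 4.96, a setting chosen after seeing the data, and the drug-free one was -0.32 there and -0.41 over members whose higher array did. These level settings keep fewer cadherins and choose them by their level, and why the medians shifted was not tested. In limma 14, 4 and 7 members had an unadjusted p under 0.05 in the 24-hour, 21-day and joint fits, and none passed after adjustment, with no level filter or with an intensity trend either. The alpha median had no value under a level filter, as no member remained. The joint fit, with the pair as a term, is the only paired fit these arrays allow. With 1 array per condition no replicate could be left out.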
